A study of Rattus norvegicus with 9 samples.

Results

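Adenoviral delivery of Nfya was set against delivery of GFP in neonatal rat ventricular myocytes (NRVMs), which are primary heart muscle cells prepared from the ventricles of newborn rats. All libraries with these labels were taken, 3 for Nfya and 3 for GFP, which makes 6 of the 9 messenger RNA libraries in the series. The other 3 carried a virus for Nfe2l1, a cap'n'collar transcription factor. Every culture, controls included, came from Sprague-Dawley rats 1 to 2 days old and stood for 48 h in medium with 3% fetal bovine serum. Each well of a 12-well plate then received 8 µL of adenovirus in 1 mL of medium without serum, and RNA was taken 48 h later. The GFP cultures therefore carried a virus too, and as labelled the groups differed only in its insert. No promoter is given for the inserts in the sources used here, no sorting step is named, and whether the libraries of a group are separate cultures is not stated by the labels. P-values therefore rest on the spread among these libraries alone, and that spread may be technical.

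NFYA is the subunit of the trimeric factor NF-Y that recognises DNA. It joins the histone-fold pair NFYB and NFYC and binds the CCAAT box, a short motif that often lies a little upstream of the transcription start. CCAAT boxes are common in promoters of cell division genes, and heart muscle cells leave the cell cycle around birth. The question for this comparison was which genes other than those of the cell cycle and the extracellular matrix differed between the cultures.

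The 6 libraries held 5712123 to 6782414 counts, and 14151 of the 28935 genes counted were abundant enough for a test. Levels are given as CPM, counts scaled to the library total after TMM correction, in the order of replicates 1, 2 and 3 or as mean ± SD over 3 libraries, and changes as log2 fold change ± SE of the Nfya-labelled over the GFP libraries. A gene was called when its adjusted p in edgeR was below 0.05. The SE is computed from the F value and is too small where few counts give a large change. Some genes were covered densely: 708 tested genes (5.0%) had more than 0.5 counts per base of gene length, none had more than 1.45, and they include many muscle genes. Over 11296 genes with more than 50 counts, pairs of Nfya-labelled libraries differed by less than counting noise (chi-square per degree of freedom 0.876 to 0.934), while over the 3267 of them under 0.1 counts per base they differed by more (1.06 to 1.23) and so were kept as separate samples. The counts of densely covered genes thus look capped, and changes among them may be compressed. GFP replicate 3 stood apart over the 11296 genes (1.65 and 1.71 in its GFP pairs, 1.04 in the other pair) but not over the thinly covered ones (1.24 to 1.27 in the 3 GFP pairs). It was the shallowest library, at 5712123 counts. The targeted transcript, Nfya, stood at 81.4, 81.9 and 77.8 CPM in GFP and 89.2, 88.3 and 89.6 CPM in the Nfya-labelled libraries. These groups did not overlap, but the difference was only 1.11-fold (log2 fold change 0.15 ± 0.04, adjusted p = 0.00926), and it was not called with DESeq2. The Nfe2l1-labelled libraries lay at 90.5, 91.7 and 94.8 CPM, just above the Nfya-labelled ones, and the direct test did not call a difference (adjusted p = 0.361). The RNA thus does not show a strong excess of Nfya where the label calls for one, and "Nfya-labelled" is used throughout, with every direction resting on that label.

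Many genes passed the test, most of them with small changes. edgeR called 7386 of the 14151 tested genes (52.2%), 3433 higher (24.3%) and 3953 lower (27.9%), and in 8719 genes (61.6%) the 3 Nfya-labelled libraries did not overlap the 3 GFP libraries. Called genes had a median absolute change of 0.37 on the log2 scale, and the median over all tested genes was -0.02. Changes of at least 2-fold were fewer and leaned upward, with 916 genes higher (6.47%) and 481 lower (3.40%). Rises also outnumbered falls at this size under every alternative tried, while the order of 3433 and 3953 turned under several. Over 85 lists of functional groups, cell types and reference genes, 4694 different genes were found in the count table and 3338 were abundant enough for a test, and counts below are over the tested members. Each list count is to be read beside 24.3% higher and 27.9% lower over all tested genes. The lists left out 5325 of the called genes (72.1%) and 863 of the 1397 genes called at 2-fold or more. The plot of change against level shows both tails.

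**Figure D1:**
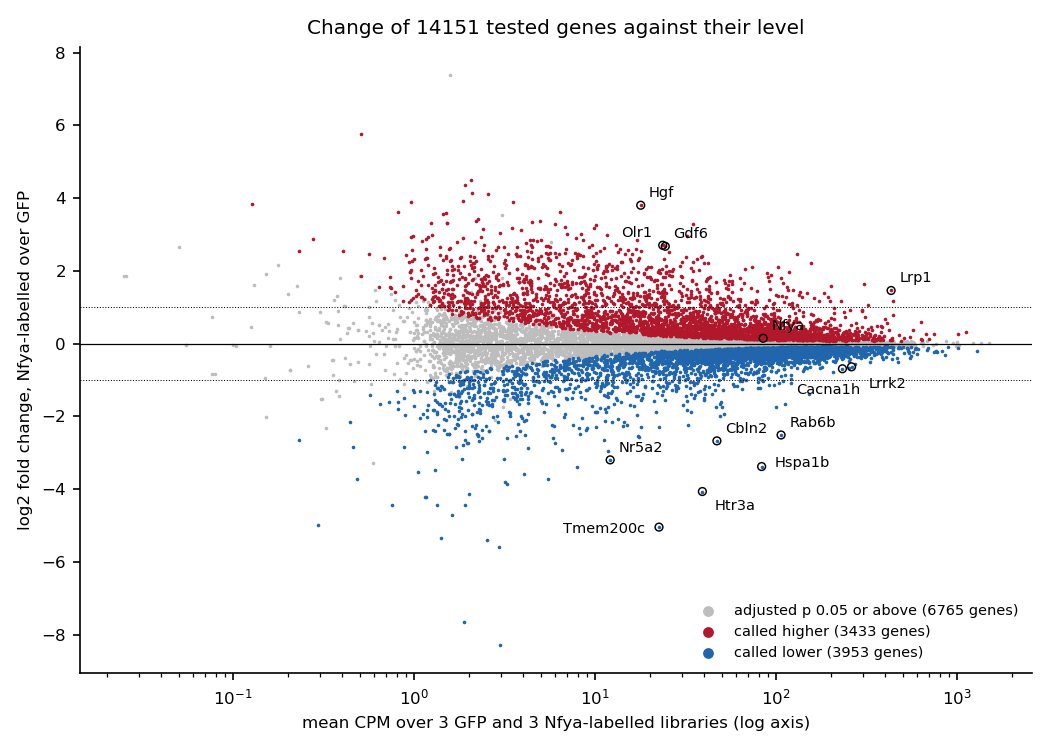
Log2 fold change of the Nfya-labelled over the GFP libraries (vertical axis) against mean CPM over these 6 libraries (horizontal axis, logarithmic) for the 14151 tested genes, 1 point a gene. Red marks 3433 genes called higher, blue 3953 called lower, grey the rest, dotted lines mark 2-fold, and Hgf and Tmem200c stand at the upper and lower edge among the circled genes.

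Among genes reaching 20 CPM outside the cell cycle and matrix lists, the largest rises included genes for a secreted growth factor, for prostaglandin breakdown and for hyaluronan synthesis. Hgf, the gene of hepatocyte growth factor, which signals through the receptor MET, stood at 1.69, 3.10 and 2.30 CPM in GFP and 33.0, 30.2 and 36.8 CPM in the Nfya-labelled libraries. This was a rise of 13.9-fold (log2 fold change 3.80 ± 0.16, adjusted p = 2.10e-11). Hpgd, the enzyme gene that inactivates prostaglandins, stood at 3.37, 2.36 and 1.95 CPM in GFP and 20.5, 18.996 and 22.4 CPM in the Nfya-labelled libraries. It rose 7.93-fold (log2 fold change 2.99 ± 0.16, adjusted p = 3.33e-10), and the highest GFP library lay far under the lowest Nfya-labelled one. Olr1, the receptor gene for oxidised low-density lipoprotein, stood at 6.74, 6.21 and 5.84 CPM in GFP and 37.5, 41.9 and 43.4 CPM in the Nfya-labelled libraries. Its rise was 6.51-fold (log2 fold change 2.70 ± 0.10, adjusted p = 6.64e-12). Gdf6, a ligand gene of the bone morphogenetic protein family, stood at 6.74, 6.50 and 6.55 CPM in GFP and 42.1, 41.6 and 42.8 CPM in the Nfya-labelled libraries. It rose 6.38-fold with little spread in either group (log2 fold change 2.67 ± 0.08, adjusted p = 5.63e-13). Has2, which makes the matrix polysaccharide hyaluronan, stood at 6.59, 4.58 and 4.42 CPM in GFP and 30.7, 30.5 and 31.2 CPM in the Nfya-labelled libraries, a rise of 5.88-fold (log2 fold change 2.55 ± 0.13, adjusted p = 1.96e-10).

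Pamr1, a gene linked by name to muscle regeneration, went from 4.07 ± 0.857 to 29.8 ± 1.56 CPM (2.85 ± 0.14). Dpep1, a membrane dipeptidase gene, went from 3.35 ± 1.40 to 22.6 ± 1.12 CPM (2.71 ± 0.17). The other members of this top group were Gpm6b, a membrane proteolipid gene (2.61 ± 0.15), Gda, guanine deaminase (2.60 ± 0.14), Car3, carbonic anhydrase 3 (2.56 ± 0.13), Dhrs9, a retinol dehydrogenase gene (2.51 ± 0.19), and Upk1b, a uroplakin gene also known from mesothelium (2.51 ± 0.10). In all 12 genes the libraries of both groups did not overlap, a condition of the rule that chose them. Set directly against the Nfe2l1-labelled libraries, 10 of these 12 differed, 9 of them higher and 1 lower in the Nfya-labelled libraries. Genes chosen for high levels in the Nfya-labelled libraries lean in this direction by that choice. The share of all tested genes that differ between these viruses is not given, so the count does not measure specificity. Hgf stood at 9.95, 11.1 and 9.14 CPM in the Nfe2l1-labelled libraries, between the other groups.

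The largest falls included genes for ion channels, transporters and vesicle traffic. Tmem200c, a gene for a membrane protein, stood at 42.9, 48.3 and 39.98 CPM in GFP and 2.30, 0.760 and 0.895 CPM in the Nfya-labelled libraries. It was nearly lost from the Nfya-labelled libraries (log2 fold change -5.04 ± 0.19, adjusted p = 6.31e-12). Htr3a, a subunit gene of the serotonin-gated ion channel, stood at 72.6, 75.9 and 72.9 CPM in GFP and 4.75, 3.95 and 4.47 CPM in the Nfya-labelled libraries. Every library fell to a small part of the GFP level (log2 fold change -4.07 ± 0.09, adjusted p = 2.67e-14). Nr5a2, the nuclear receptor gene LRH-1, stood at 23.4, 22.6 and 19.5 CPM in GFP and 2.45, 1.67 and 2.98 CPM in the Nfya-labelled libraries (log2 fold change -3.20 ± 0.17, adjusted p = 2.98e-10). Rab6b, a small GTPase gene of Golgi transport, was the highest of this group at the start and stood at 178, 181 and 185 CPM in GFP and 28.4, 34.3 and 32.4 CPM in the Nfya-labelled libraries (log2 fold change -2.51 ± 0.05, adjusted p = 1.76e-14). Cbln2, a synapse organiser gene of the cerebellin family, stood at 80.9, 86.9 and 76.3 CPM in GFP and 10.4, 15.04 and 12.8 CPM in the Nfya-labelled libraries (log2 fold change -2.67 ± 0.09, adjusted p = 2.43e-12).

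Slc24a2, a potassium-dependent sodium-calcium exchanger gene, fell from 20.9 ± 2.01 to 2.68 ± 0.556 CPM (-2.95 ± 0.16). Chst9, a sulfotransferase gene (-2.58 ± 0.18), Dock3, a Rac activator gene (-2.55 ± 0.16), Atp4a, the gastric proton pump gene (-2.29 ± 0.13), Wfdc1, a protease inhibitor gene (-2.28 ± 0.13), and Tdrd1, a germ cell tudor gene (-2.28 ± 0.16), fell by comparable amounts. Hspa1b, an inducible heat shock protein gene, stood at 249, 155 and 50.4 CPM in GFP and 17.5, 16.4 and 10.9 CPM in the Nfya-labelled libraries. Its GFP libraries differed several-fold among themselves, and a near-identical paralog can share its reads. The size of its fall (-3.38 ± 0.60) is uncertain. Against the Nfe2l1-labelled libraries, 7 of the 12 falls differed, 5 lower and 2 higher in the Nfya-labelled libraries. As with the rises, the choice of these genes favours the lower direction, and the count does not measure specificity. Tmem200c stood at 25.2, 29.8 and 29.0 CPM in the Nfe2l1-labelled libraries, while Htr3a was low there too, at 2.02, 2.82 and 3.14 CPM.

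**Figure D2:**
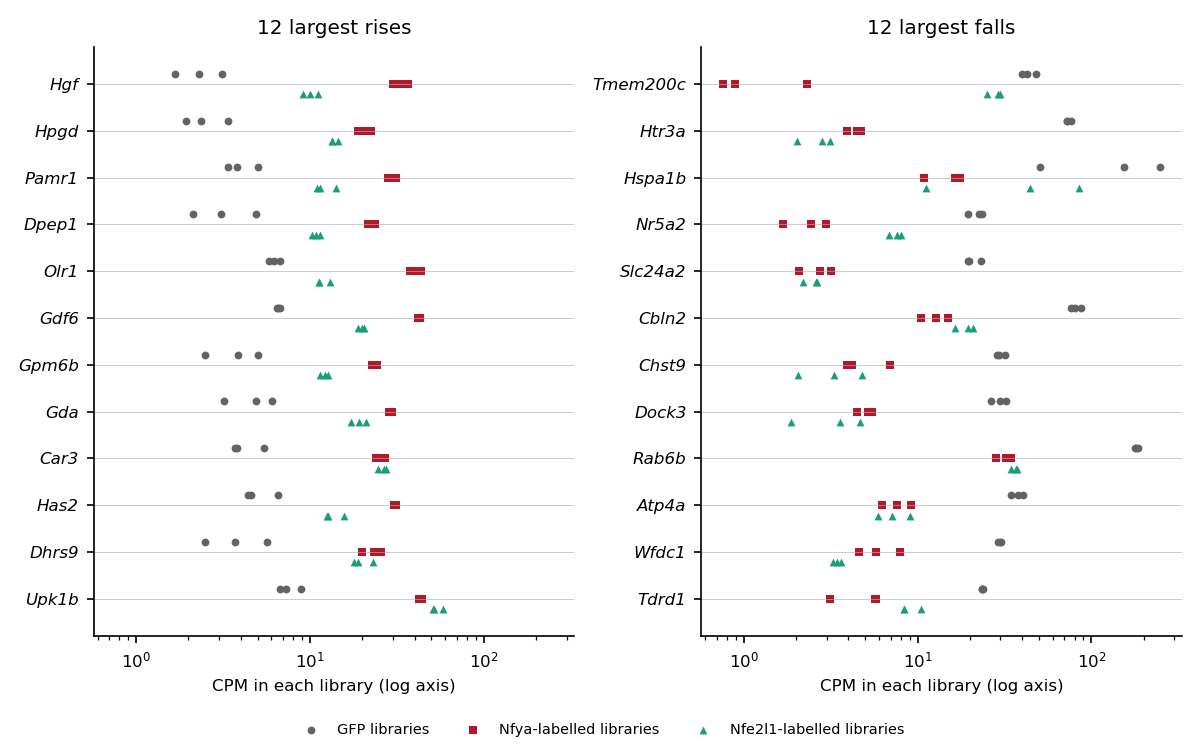
CPM in each library (horizontal axis, logarithmic) of the 12 largest rises and 12 largest falls among genes reaching 20 CPM outside the cell cycle and matrix lists, with GFP libraries as grey circles, Nfya-labelled as red squares and Nfe2l1-labelled as green triangles. Grey and red points do not overlap in any gene, and Hspa1b shows the widest spread in GFP.

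Among abundant genes, changes of 1.5-fold or more included genes of endocytosis, Golgi processing and calcium entry. Lrp1, the large endocytic receptor of the low-density lipoprotein family, stood at 248, 217 and 226 CPM in GFP and 641, 629 and 628 CPM in the Nfya-labelled libraries. It rose 2.75-fold (log2 fold change 1.46 ± 0.04, adjusted p = 1.61e-13). Ppp1r12b, a targeting subunit of myosin phosphatase, rose from 209 ± 13.7 to 388 ± 4.90 CPM (0.89 ± 0.04), and the alpha-kinase gene Alpk2 from 205 ± 6.70 to 389 ± 6.72 CPM (0.93 ± 0.03). Man2a1, a mannosidase of the Golgi, rose by 0.86 ± 0.03, Asph, an aspartate hydroxylase locus that also codes for junctional calcium proteins, by 0.85 ± 0.04, and Abcb4, a phospholipid transporter gene, by 0.69 ± 0.03. Mmp2, the gelatinase gene, rose by 0.92 ± 0.04. Of these 10 genes 3 fell. Lrrk2, a large kinase gene known from Parkinson's disease, stood at 312, 314 and 328 CPM in GFP and 204, 204 and 203 CPM in the Nfya-labelled libraries (log2 fold change -0.64 ± 0.03, adjusted p = 1.97e-10). Uba6, a ubiquitin-activating enzyme gene, fell from 310.0 ± 10.2 to 193 ± 4.58 CPM (-0.68 ± 0.03), and Cacna1h, a T-type calcium channel gene of immature heart muscle, from 287 ± 3.04 to 178 ± 2.80 CPM (-0.69 ± 0.03).

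Markers of cell types were examined before any gene group. Of 16 cardiomyocyte markers 15 were found in the count table, and 4 rose and none fell, at a summed level of 4717 to 5225 CPM in GFP and 5000.2 to 5064 CPM in the Nfya-labelled libraries. GFP replicate 3, the shallowest library, had the highest sum of the 6. Of the 15 markers 11 had more than 0.5 counts per base. Whether depth and capped counts raised that sum was not tested. The rises, named after their values were seen, were those of Myl2 (0.29 ± 0.05), Myh6 (0.16 ± 0.04), Actc1 (0.13 ± 0.05) and Nkx2-5 (0.12 ± 0.04). Only 2 markers rose with the replicate block or without GFP replicate 1, GFP replicate 2 or Nfya replicate 2, where Actc1 and Nkx2-5 lost their calls (as did Actc1 without Nfya replicate 1 and Nkx2-5 without Nfya replicate 3 and with DESeq2), and 1 fell without GFP replicate 1, GFP replicate 2 or Nfe2l1 replicate 3 or with a ceiling of 1.6 counts per base inverted. Per gene length, their median level in GFP was 112 RPKM, a unit that divides reads by gene length and depth, against 10.96 RPKM for the 16 fibroblast markers, so the markers of the labelled cell type stood higher. Fibroblast markers rose in 13 and fell in 2 cases (1 with DESeq2, with the replicate block or without GFP replicate 2, Nfya replicate 1 or Nfya replicate 2), from 1466 to 1545 CPM to 2557 to 2588 CPM summed. Lum, a small proteoglycan gene, stood at 13.02, 11.7 and 11.3 CPM in GFP and 58.2, 57.0 and 56.2 CPM in the Nfya-labelled libraries, and Postn, the periostin gene, at 116, 109 and 109.5 CPM in GFP and 273, 273 and 274 CPM in the Nfya-labelled libraries. Both rose, by 2.25 ± 0.07 and 1.29 ± 0.03, and their groups did not overlap, as in 61.6% of all tested genes. The falls were those of Pdpn and Col1a2. Pdpn went from 55.5 ± 0.876 to 43.5 ± 2.15 RPKM. Col1a2, a collagen gene, had the largest fall of the list (-2.24), from 182 counts over the GFP libraries to 40 over the Nfya-labelled ones. Its GFP libraries spread widely (2.12 ± 1.85 RPKM). The collagen gene Col1a1 of the same list stood far higher, at 85.8 ± 3.15 RPKM in GFP and 131 ± 1.23 RPKM in the Nfya-labelled libraries. Whether the Col1a2 counts capture the whole gene was not tested, and its fall is uncertain. In whole cultures, more cells of a type and more RNA per cell cannot be told apart.

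Endothelial markers rose in 8 of 12 tested cases and fell in 1 (2 without Nfe2l1 replicate 2 or Nfya replicate 1), from 354 to 373 CPM to 492 to 512 CPM summed, with Cldn5 and Robo4 at 0 in both groups. The angiopoietin receptor gene Tek went from 18.8 to 64.1 CPM (1.77 ± 0.08), whereas Kdr, the main VEGF receptor gene, fell from 163 to 77.0 CPM (-1.08 ± 0.04). For smooth muscle and pericyte markers the counts were 7 higher and 1 lower of 11 (1529.8 to 1557 CPM to 1671 to 1685 CPM). Among 10 epicardial and mesothelial markers 8 rose and 2 fell (183 to 195 CPM to 216 to 241 CPM), with a median of 0.93. Msln, the mesothelin gene, had the highest change, from 1.29 to 12.3 CPM, and the falls were those of Krt18 (-0.84 ± 0.07) and Aldh1a2 (-0.38 ± 0.07), the latter named after its values were seen. Of 8 macrophage and leukocyte markers 6 rose and 1 fell, though only 3 rose with DESeq2 (76.6 to 96.8 CPM to 108 to 121 CPM). Atrial and conduction markers went the other way, with 3 of 15 higher (1 with DESeq2) and 8 lower (1119 to 1127 CPM to 961 to 971 CPM). The rises were those of Bmp10 (0.64 ± 0.09), Gja5 (0.25 ± 0.06) and Myl7 (0.13 ± 0.05), named after their values were seen. The call of Myl7 was lost with DESeq2 and without GFP replicate 1, GFP replicate 2, Nfya replicate 2 or Nfya replicate 3, and that of Gja5 with DESeq2. Kcnj3, a subunit gene of the acetylcholine-activated potassium channel, stood at 56.1, 53.6 and 56.4 CPM in GFP and 32.6, 28.9 and 30.4 CPM in the Nfya-labelled libraries and fell (-0.85 ± 0.06). The pacemaker channel gene Hcn4 fell from 81.4 to 56.1 CPM (-0.54 ± 0.07). How much of the changes described next comes with these marker shifts was not tested.

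Genes of the insulin-like growth factor (IGF) axis, which carries growth signals to muscle and connective tissue, mostly rose. Of 24 tested genes 18 rose and 2 fell (1 under 8 alternatives, among them DESeq2 and without GFP replicate 2, Nfya replicate 1 or Nfya replicate 2), with a median of 0.30, against 24.3% higher among all genes. Among the ligands, Igf1 stood at 7.20, 6.50 and 5.48 CPM in GFP and 24.2, 25.5 and 25.4 CPM in the Nfya-labelled libraries. It rose by 1.96 ± 0.11, and Igf2 by 0.90 ± 0.06. Pappa1, the protease gene that frees IGF from binding proteins, stood at 13.8, 12.4 and 12.4 CPM in GFP and 54.9, 53.0 and 56.2 CPM in the Nfya-labelled libraries and rose 4.24-fold (log2 fold change 2.09 ± 0.07, adjusted p = 2.14e-12). The binding protein genes Igfbp2 (2.66 ± 0.21), Igfbp4 (1.85 ± 0.10), Igfbp5 (0.73 ± 0.06) and Igfbp6 (1.16 ± 0.09) rose as well. Igfbp3 stood at -0.10 ± 0.07 and was not called (adjusted p = 0.274), except without GFP replicate 3. The receptors moved little, with Igf1r at 0.21 ± 0.03 and Insr at 0.21 ± 0.03. Of the RNA-binding proteins in the list, Igf2bp3 rose from 75.7 ± 1.81 to 190.1 ± 1.27 CPM while Igf2bp2 fell from 67.7 ± 4.04 to 55.5 ± 2.89 CPM. Igf1, Igf2, Igfbp2, Igfbp5, Igfbp6, Igfbp3, Igf1r and Insr are given here beyond the naming rule, after their values were seen.

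Complement and coagulation genes rose in 23 of 40 tested cases and fell in 6 (median 0.60, 3 lower with DESeq2). The classical pathway protease gene C1s stood at 27.4, 21.9 and 21.8 CPM in GFP and 90.6, 87.2 and 83.2 CPM in the Nfya-labelled libraries. It rose 3.66-fold (log2 fold change 1.87 ± 0.07, adjusted p = 5.22e-12), and its partner C1r rose from 66.0 ± 1.12 to 161 ± 2.30 CPM (1.29 ± 0.03). Pros1, the gene of the anticoagulant protein S, rose from 58.0 ± 0.763 to 114 ± 3.53 CPM (0.98 ± 0.04). The urokinase receptor gene Plaur fell from 33.6 to 24.8 CPM (-0.44 ± 0.07), while the urokinase gene Plau, chosen after its values were seen, rose from 4.90 to 20.8 CPM (2.08 ± 0.16). The complement inhibitor gene Cd59 fell by a small amount (-0.21 ± 0.04).

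Protease genes followed the same direction. Of 48 matrix metalloproteinase, ADAM and ADAMTS genes 29 rose and 4 fell (median 0.30, 2 lower with a minimum of 5 CPM and 7 with no filter). Adamts2, which trims procollagen, stood at 49.8, 46.0 and 46.0 CPM in GFP and 163, 164 and 169.6 CPM in the Nfya-labelled libraries. It rose 3.50-fold (log2 fold change 1.81 ± 0.04, adjusted p = 2.67e-14), and Adamts5, an aggrecan-cleaving enzyme gene, rose from 37.3 ± 1.94 to 107 ± 1.42 CPM (1.52 ± 0.05). Mmp14, the membrane-anchored activator of MMP2, rose from 68.7 ± 2.09 to 153 ± 1.41 CPM (1.15 ± 0.03). Adamts8 went the other way, from 104 ± 5.18 to 54.5 ± 1.27 CPM (-0.94 ± 0.05). Serpins, cathepsins and secreted inhibitors rose in 25 of 48 cases and fell in 5 (median 0.42, 3 lower with DESeq2 or a minimum of 5 CPM). The C1 inhibitor gene Serping1 rose from 10.6 ± 0.641 to 42.5 ± 1.44 CPM (2.00 ± 0.08), and Serpinf1, the gene of the antiangiogenic factor PEDF, from 9.79 ± 1.68 to 33.2 ± 1.16 CPM (1.75 ± 0.10). Genes that build and sulfate glycosaminoglycans rose in 29 and fell in 17 of 57 cases (median 0.28). Sulf1, a heparan sulfate editing enzyme gene, stood at 80.6, 69.4 and 70.4 CPM in GFP and 197, 199 and 198 CPM in the Nfya-labelled libraries (log2 fold change 1.43 ± 0.05, adjusted p = 1.03e-12), and Gpc3, a heparan sulfate proteoglycan gene, rose by 1.11 ± 0.05. Fibroblast markers rose beside these groups (13 of 16, 1466 to 1545 CPM to 2557 to 2588 CPM summed), and their part was not tested.

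Chemokine, interleukin and TNF family ligands rose in 19 of 34 tested cases and fell in 5 (median 0.63). The list holds 94 genes in the count table, most of them with too few counts to test, and with a minimum of 5 CPM 11 rises and 3 falls were left. Cxcl16, a membrane-bound chemokine gene, stood at 16.5, 13.2 and 12.2 CPM in GFP and 46.7, 43.6 and 44.0 CPM in the Nfya-labelled libraries. It rose 3.19-fold (log2 fold change 1.67 ± 0.08, adjusted p = 1.67e-10). Csf1, the growth factor gene of macrophages, rose from 88.4 ± 4.78 to 148 ± 1.75 CPM (0.74 ± 0.04), and the TNF family ligand gene Tnfsf18 from 39.2 ± 2.83 to 87.7 ± 4.19 CPM (1.17 ± 0.06). Cx3cl1, the fractalkine gene, stood at 94.4, 96.3 and 83.5 CPM in GFP and 47.5, 43.0 and 46.4 CPM in the Nfya-labelled libraries and fell (-1.01 ± 0.06). Among 52 cytokine and chemokine receptors 25 rose and 12 fell. Il1rl1, the receptor gene for interleukin-33, rose from 33.4 ± 2.79 to 78.5 ± 2.45 CPM (1.24 ± 0.05), and Il1rl2, the interleukin-36 receptor gene, from 18.8 ± 3.11 to 67.7 ± 3.72 CPM (1.84 ± 0.08). The interleukin-6 receptor gene Il6r fell from 66.6 ± 2.23 to 36.8 ± 2.85 CPM (-0.85 ± 0.06), and Tnfrsf11a, the RANK receptor gene, from 16.9 ± 2.85 to 3.38 ± 0.258 CPM (-2.30 ± 0.17). Tnfrsf11b, which codes for the decoy of the RANK ligand, rose from 63.1 ± 3.55 to 111 ± 6.77 CPM (0.81 ± 0.05).

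Growth factor and receptor kinase genes moved both ways. Of 57 growth factor and secreted ligand genes 21 rose and 14 fell (7 fell with DESeq2). Ptn, the pleiotrophin gene, stood at 24.2, 23.8 and 23.4 CPM in GFP and 76.8, 80.1 and 81.1 CPM in the Nfya-labelled libraries and rose 3.33-fold (log2 fold change 1.74 ± 0.05, adjusted p = 5.07e-13). Fgf9, a fibroblast growth factor gene of the developing heart, fell from 32.5 ± 2.31 to 14.7 ± 1.98 CPM (-1.15 ± 0.10), Tgfa, an EGF receptor ligand gene, from 109 ± 1.81 to 67.3 ± 2.91 CPM (-0.69 ± 0.05), and Kitlg, the stem cell factor gene, from 247 ± 6.96 to 179 ± 1.48 CPM (-0.46 ± 0.03). Of 47 receptor tyrosine kinase genes 20 rose and 18 fell, 10 and 3 of them at least 2-fold. Egfr stood at 14.1, 16.5 and 13.6 CPM in GFP and 60.8, 56.8 and 61.9 CPM in the Nfya-labelled libraries. The rise of this epidermal growth factor receptor gene was 4.03-fold (log2 fold change 2.01 ± 0.08, adjusted p = 1.01e-11). Ddr2, the fibrillar collagen receptor gene, rose by 1.49 ± 0.05, and Axl, a receptor gene for GAS6, by 1.05 ± 0.04. The ephrin receptor gene Ephb3 fell from 126 ± 6.22 to 74.0 ± 2.25 CPM (-0.77 ± 0.05).

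Developmental pathways held calls in both directions, as did all tested genes (24.3% higher and 27.9% lower). In the WNT list 16 of 45 genes rose and 18 fell. The secreted WNT antagonists Sfrp2 (4.46 to 24.8 CPM, 2.46 ± 0.13) and Frzb (1.56 to 8.13 CPM, 2.35 ± 0.22) rose from low levels. The related gene Sfrp1 stood at 259, 259.9 and 269 CPM in GFP and 205, 206 and 205 CPM in the Nfya-labelled libraries and fell (-0.35 ± 0.03), and Wls, which carries WNT proteins to the cell surface, fell (-0.31 ± 0.03). In the BMP, activin and GDF list 18 of 49 rose (36.7%) and 16 fell (32.7%), 10 and 1 of them at least 2-fold. Inhbb, an activin subunit gene, rose from 10.4 ± 1.27 to 37.0 ± 1.57 CPM (1.83 ± 0.10), and Fst, the gene of the activin trap follistatin, from 12.7 ± 0.954 to 34.9 ± 1.27 CPM (1.46 ± 0.08). Its relative Fstl3 fell from 66.4 ± 1.36 to 40.1 ± 0.981 CPM (-0.73 ± 0.05).

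Among 24 Notch pathway genes 7 rose and 8 fell (5 fell with DESeq2). These shares of 29.2% and 33.3% are near the 24.3% and 27.9% over all tested genes. The ligand gene Jag2 stood at 81.2, 81.1 and 83.0 CPM in GFP and 23.4, 22.8 and 17.9 CPM in the Nfya-labelled libraries and fell (-1.94 ± 0.07), and the receptor gene Notch1 fell from 124 ± 5.55 to 83.8 ± 2.63 CPM (-0.57 ± 0.04). Notch2 rose slightly, from 247 ± 4.43 to 295 ± 2.16 CPM (0.26 ± 0.03). In the Hedgehog list 4 of 13 rose (30.8%) and 6 fell (46.2%). The receptor gene Ptch1 (-0.72 ± 0.06) and the signal transducer gene Smo (-0.45 ± 0.06) fell, as did Disp1, which releases the ligand (-1.01 ± 0.05). The transcription factor genes Gli2 (3.78 to 17.05 CPM, 2.16 ± 0.15) and Gli3 (21.0 to 50.8 CPM, 1.27 ± 0.08) rose. Among semaphorin, plexin, Slit-Robo, netrin and ephrin guidance genes 21 of 53 rose (39.6%) and 20 fell (37.7%), but at 2-fold or more the counts were 13 and 1. Over all tested genes 6.47% and 3.40% changed this far. Robo2, a Slit receptor gene, stood at 33.6, 32.7 and 28.1 CPM in GFP and 97.0, 98.6 and 106 CPM in the Nfya-labelled libraries (log2 fold change 1.67 ± 0.06, adjusted p = 4.72e-12), and the semaphorin co-receptor gene Nrp2 rose from 106 ± 3.78 to 238 ± 3.88 CPM (1.16 ± 0.04). Sema7a fell from 28.8 ± 2.10 to 12.4 ± 2.09 CPM (-1.22 ± 0.11).

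Retinoic acid, the vitamin A signal, is made by retinol and retinal dehydrogenases. In its list 10 of 23 genes rose and 6 fell (median 0.23). The enzymes of synthesis moved in opposite directions. Aldh1a3 stood at 12.4, 9.31 and 9.91 CPM in GFP and 46.6, 50.3 and 52.8 CPM in the Nfya-labelled libraries and rose 4.72-fold (log2 fold change 2.24 ± 0.09, adjusted p = 1.18e-11), while Aldh1a1 fell from 26.2 ± 1.69 to 11.6 ± 1.47 CPM (-1.18 ± 0.12). Upstream of them, the dehydrogenase gene Dhrs9 rose, as given among the largest rises, and Rdh10 fell from 58.9 ± 0.918 to 32.6 ± 1.70 CPM (-0.85 ± 0.05). Prostaglandin and eicosanoid genes rose in 13 and fell in 7 of 28 cases. Ptgs1, the cyclooxygenase 1 gene, stood at 17.2, 15.8 and 14.7 CPM in GFP and 52.1, 52.3 and 53.2 CPM in the Nfya-labelled libraries (log2 fold change 1.72 ± 0.07, adjusted p = 1.51e-11). Alox5, the 5-lipoxygenase gene of leukotriene synthesis, rose from 1.80 ± 0.726 to 14.99 ± 1.55 CPM (3.01 ± 0.20). The prostaglandin E receptor gene Ptger3 stood at 53.5, 55.3 and 51.5 CPM in GFP and 12.1, 10.8 and 11.3 CPM in the Nfya-labelled libraries and fell (-2.23 ± 0.07).

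Vasoactive and natriuretic peptide genes, which set vessel tone and heart load, rose in 17 of 31 cases and fell in 5 (median 0.47). Agtr1a, the main angiotensin II receptor gene, stood at 5.36, 4.73 and 5.31 CPM in GFP and 17.5, 21.0 and 25.2 CPM in the Nfya-labelled libraries. It rose 4.14-fold (log2 fold change 2.05 ± 0.15, adjusted p = 1.72e-08), and Ace, the angiotensin-converting enzyme gene, rose from 6.80 ± 0.352 to 22.3 ± 2.45 CPM (1.71 ± 0.11). Ece1, the endothelin-converting enzyme gene, rose from 117 ± 4.59 to 202 ± 2.79 CPM (0.78 ± 0.04). Gucy1a1, a subunit gene of the nitric oxide sensor guanylate cyclase, stood at 139.9, 139.8 and 135 CPM in GFP and 73.9, 73.2 and 76.8 CPM in the Nfya-labelled libraries and fell (-0.89 ± 0.03). Nppa and Nppb, the natriuretic peptide genes that rise in stressed heart muscle, were named after their values were seen. Nppa differed by -0.06 ± 0.04 (adjusted p = 0.291) and Nppb by 0.09 ± 0.06 (adjusted p = 0.189, and called with only the 6 libraries compared), and both had more than 0.5 counts per base. Among 103 tested G protein-coupled receptor genes 37 rose and 34 fell. Avpr1a, a vasopressin receptor gene, rose from 8.74 ± 0.537 to 31.0 ± 0.875 CPM (1.82 ± 0.10). The corticotropin-releasing hormone receptor gene Crhr2, which serves urocortin signals in the heart, stood at 49.2, 54.8 and 45.6 CPM in GFP and 14.7, 12.6 and 15.4 CPM in the Nfya-labelled libraries (log2 fold change -1.81 ± 0.09, adjusted p = 1.05e-10). Adora1, the adenosine receptor gene that slows the heart, fell from 51.7 ± 2.33 to 19.4 ± 1.42 CPM (-1.41 ± 0.07).

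Potassium channel genes went both ways. Of 53 potassium channel genes 11 rose and 20 fell, shares of 20.8% and 37.7% beside 24.3% and 27.9% over all tested genes (median -0.17), although the rises numbered 5 with a minimum of 5 CPM, 6 with DESeq2 and 7 without GFP replicate 3 or without Nfya replicate 2. Kcnd3, a subunit gene of the transient outward current of heart muscle, stood at 93.5, 91.0 and 85.5 CPM in GFP and 52.9, 50.9 and 54.6 CPM in the Nfya-labelled libraries and fell (-0.77 ± 0.04). Kcnn1, a calcium-activated channel gene, fell from 55.9 ± 0.952 to 23.6 ± 1.04 CPM (-1.24 ± 0.07), and Kcna7 from 23.4 ± 2.27 to 5.30 ± 0.654 CPM (-2.14 ± 0.14). Kcnh2, which carries the rapid repolarising current, and its partner Kcne2 were added after their values were seen, and both fell (-0.34 ± 0.04 and -2.28 ± 0.21). Those that rose, such as Kcna6 (1.72 to 7.47 CPM) and Kcnk5 (2.63 to 7.93 CPM), were scarce.

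Sodium and calcium channels were mixed as well. Of 35 sodium and calcium channel genes 12 rose and 15 fell. The L-type channel gene Cacna1c, the main calcium entry of heart muscle, rose from 153 ± 2.06 to 235 ± 4.16 CPM (0.62 ± 0.03), while its accessory gene Cacna2d2 fell from 113 ± 3.29 to 55.8 ± 0.345 CPM (-1.02 ± 0.04). Scn4b, a sodium channel beta subunit gene, stood at 53.2, 55.6 and 50.1 CPM in GFP and 14.3, 15.3 and 13.7 CPM in the Nfya-labelled libraries and fell (-1.88 ± 0.08). Scn1a rose from 97.4 ± 7.49 to 159.6 ± 5.20 CPM (0.71 ± 0.05). The mechanosensitive channel gene Piezo2 rose from 10.6 ± 1.32 to 38.1 ± 1.03 CPM (1.83 ± 0.09). Of 15 aquaporin, connexin and pannexin genes 8 fell and 2 rose (5 and 1 with a minimum of 5 CPM, 6 and 0 with DESeq2), 53.3% lower beside 27.9% over all tested genes, among the falls Gja3 from 61.3 ± 0.721 to 38.8 ± 0.792 CPM (-0.66 ± 0.05). Gja1, the main connexin of ventricular muscle, was added after its values were seen and differed by -0.10 ± 0.04, short of the threshold (adjusted p = 0.0688), though it was called lower without GFP replicate 1, GFP replicate 2 or Nfe2l1 replicate 3 and with the ceiling of 1.6 counts per base inverted.

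Phospholipase and kinase genes of calcium signalling fell more often than they rose. Among phospholipase C, protein kinase C and calcium-calmodulin kinase genes 22 of 52 fell and 10 rose. These shares were 42.3% and 19.2%, beside 27.9% and 24.3% over all tested genes, where falls were also more frequent. Camk2b stood at 74.9, 79.1 and 61.9 CPM in GFP and 23.1, 21.0 and 20.6 CPM in the Nfya-labelled libraries. This kinase gene fell (-1.75 ± 0.09), as did Camk1d (-1.24 ± 0.05). Nfatc4, a calcineurin-regulated factor in the same list, rose from 5.29 ± 1.48 to 15.8 ± 1.14 CPM (1.55 ± 0.15). In the list of cyclases and phosphodiesterases 19 of 54 rose (35.2%) and 18 fell (33.3%). Pde5a, which degrades cyclic GMP, rose from 20.1 ± 1.35 to 44.4 ± 1.32 CPM (1.14 ± 0.08), and Adcy1, an adenylate cyclase gene, fell from 51.8 ± 2.80 to 18.5 ± 1.35 CPM (-1.49 ± 0.08).

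Transporter families were mostly mixed. Amino acid transporter genes rose in 15 and fell in 8 of 36 cases, with the neutral amino acid exchanger gene Slc7a8 up from 30.2 ± 2.74 to 71.6 ± 3.74 CPM (1.24 ± 0.06) and the glutamate transporter gene Slc1a3 down from 205 ± 3.51 to 138 ± 0.917 CPM (-0.57 ± 0.03). The creatine transporter gene Slc6a8 stood at 226, 218 and 217 CPM in GFP and 158, 156 and 149.6 CPM in the Nfya-labelled libraries and fell (-0.51 ± 0.03), and Slc6a6, the taurine transporter gene, fell too (-0.48 ± 0.03). Slc16a3, the lactate exporter gene, fell from 112 ± 0.611 to 78.0 ± 3.77 CPM. Of 34 ABC transporter genes 13 rose and 14 fell. The cholesterol exporter gene Abca1 stood at 108, 100.2 and 92.9 CPM in GFP and 297, 308 and 305 CPM in the Nfya-labelled libraries and rose 3.01-fold (log2 fold change 1.59 ± 0.04, adjusted p = 2.56e-13). Ion exchangers and cotransporters rose in 17 and fell in 18 of 58 cases (9 fell with DESeq2), and Atp1b2, a sodium pump subunit gene, fell from 59.1 ± 1.17 to 25.7 ± 2.15 CPM (-1.21 ± 0.06).

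Enzymes of foreign compound and steroid metabolism rose more often than they fell. Of 26 cytochrome P450 genes 13 rose and 1 fell (median 0.43, 3 lower with no filter), with 8 rises left at a minimum of 5 CPM. Cyp1b1 stood at 61.9, 57.5 and 54.0 CPM in GFP and 175, 168 and 169.7 CPM in the Nfya-labelled libraries. This target of the aryl hydrocarbon receptor rose 2.95-fold (log2 fold change 1.56 ± 0.04, adjusted p = 2.56e-13), and Cyp1a1, another of its targets, rose from 18.5 ± 1.36 to 65.2 ± 1.99 CPM (1.81 ± 0.06). Cyp27a1, the sterol 27-hydroxylase gene, fell from 46.5 ± 2.31 to 34.5 ± 3.35 CPM (-0.43 ± 0.07). Hsd11b1, which activates glucocorticoids, rose from 5.80 ± 0.227 to 28.7 ± 1.51 CPM (2.30 ± 0.10) within a list where 24 of 56 dehydrogenase and reductase genes rose and 13 fell. The conjugating enzyme gene Ugt1a1, whose locus shares exons among several transcripts, rose from 25.8 ± 0.755 to 60.8 ± 2.36 CPM (1.24 ± 0.07).

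Lipid uptake genes rose in 13 and fell in 8 of 31 cases (5 fell with DESeq2). Pltp, the phospholipid transfer protein gene, rose from 12.8 ± 1.17 to 46.8 ± 1.57 CPM (1.86 ± 0.08). Lrp2, the megalin gene, stood at 35.4, 35.8 and 31.1 CPM in GFP and 8.58, 11.4 and 8.05 CPM in the Nfya-labelled libraries and fell (-1.87 ± 0.14), in contrast to Lrp1. Apoa2 was counted 112 times over the GFP libraries and 0 times over the Nfya-labelled ones. With 3 counts taken as the floor of a whole group, it was 39.0-fold lower. This ratio takes the 112 counts as exact and covers counting error in the empty group only. Citric acid cycle and pyruvate genes moved little, with 5 of 36 higher, 9 lower (2 and 4 with DESeq2, and 3 higher without Nfya replicate 2 or 3) and none changed 2-fold. The pyruvate dehydrogenase phosphatase gene Pdp1 fell from 134 ± 3.86 to 108 ± 3.45 CPM (-0.31 ± 0.03). In the list of creatine kinase, adenylate buffering and AMPK genes 12 of 24 fell and 6 rose. Ppargc1a, the coactivator gene of mitochondrial biogenesis, rose by 0.32 ± 0.04, and Prkag1, an AMPK subunit gene, fell from 553 ± 5.74 to 460.1 ± 16.0 CPM (-0.27 ± 0.03).

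Adhesion families moved both ways. Cadherin and protocadherin genes rose in 20 and fell in 11 of 70 cases (6 fell with DESeq2). The 28.6% higher is near the 24.3% over all tested genes, while the 15.7% lower is under the 27.9%. At 2-fold or more 13 rose and 2 fell. Cdh11, the cadherin of connective tissue cells, stood at 44.9, 40.2 and 41.6 CPM in GFP and 140.4, 141 and 139 CPM in the Nfya-labelled libraries (log2 fold change 1.73 ± 0.05, adjusted p = 2.33e-13), and the giant cadherin gene Fat4 rose from 39.7 ± 3.82 to 148 ± 4.93 CPM (1.89 ± 0.06). The planar polarity gene Celsr1 fell from 260.3 ± 3.07 to 151 ± 5.41 CPM (-0.78 ± 0.03). Of 22 tight junction genes 11 rose and 6 fell (7 rose with DESeq2 or a minimum of 5 CPM). Cgn, the cingulin gene, stood at 173, 172 and 162 CPM in GFP and 50.7, 56.7 and 52.5 CPM in the Nfya-labelled libraries and fell (-1.67 ± 0.05). Immunoglobulin superfamily adhesion genes rose in 23 and fell in 11 of 44 cases (5 fell with a minimum of 5 CPM), among them Icam1, a leukocyte adhesion gene, up from 55.2 ± 4.18 to 127 ± 1.22 CPM (1.20 ± 0.04), and Nrcam, a neuronal adhesion gene, down from 59.2 ± 6.10 to 20.3 ± 3.52 CPM (-1.55 ± 0.11).

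The plot of list shares sets these groups side by side.

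**Figure D3:**
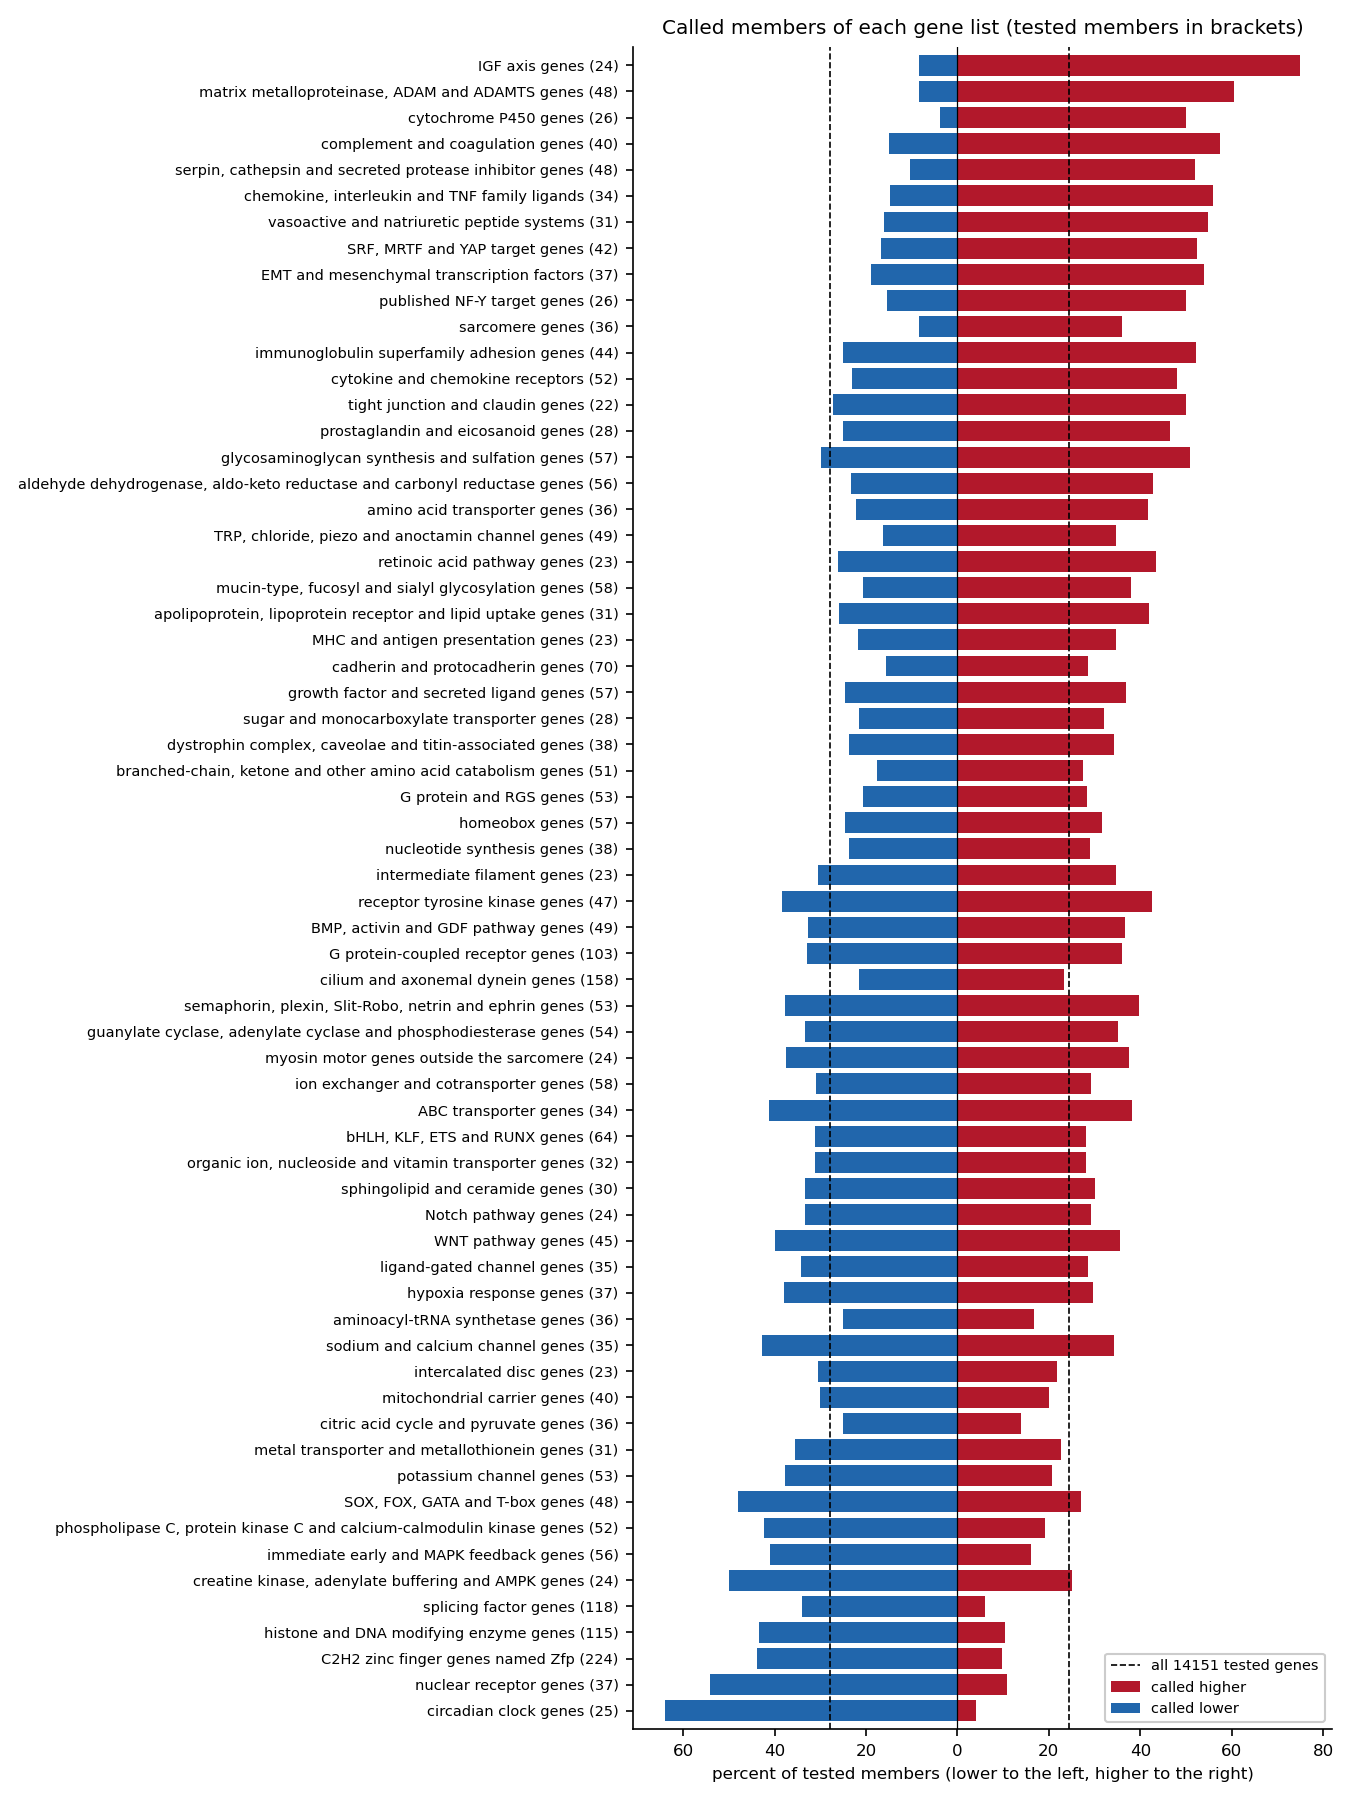
Percent of tested members called higher (red, to the right) and lower (blue, to the left) in the functional lists reported here with at least 20 tested members, sorted by the difference, with the number tested in brackets. Dashed lines mark the shares over all 14151 tested genes, 24.3% higher and 27.9% lower; IGF axis genes lie at the top and circadian clock genes at the bottom.

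Nuclear receptor genes were lower in more members than higher. Of 37 nuclear receptor genes 20 fell and 4 rose (median -0.15), against 27.9% lower among all genes. Apart from Nr5a2, the adipocyte factor gene Pparg fell from 15.2 ± 1.49 to 7.68 ± 0.464 CPM (-0.99 ± 0.12), and Nr4a1, an early response receptor gene, stood at 76.8, 76.7 and 69.9 CPM in GFP and 50.6, 52.6 and 53.5 CPM in the Nfya-labelled libraries (log2 fold change -0.52 ± 0.05, adjusted p = 1.64e-07). Added after their values were seen, the estrogen receptor gene Esr1 (-1.23 ± 0.28), the thyroid hormone receptor gene Thra (-0.19 ± 0.04) and Esrrg, a regulator of mitochondrial genes (-0.18 ± 0.04), fell. Nr1h4, the bile acid receptor gene, rose from 2.47 ± 1.08 to 13.4 ± 1.07 CPM (2.39 ± 0.21), and Rarg, a retinoic acid receptor gene, from 23.1 ± 1.76 to 36.5 ± 1.02 CPM (0.65 ± 0.07).

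Circadian clock genes, which form a feedback loop of activators and repressors, were lower by small amounts. Of 25 tested genes 16 fell and 1 rose (median -0.18), and none changed 2-fold. The activator gene Clock stood at 357, 352 and 362 CPM in GFP and 291, 299 and 286 CPM in the Nfya-labelled libraries. The change was -0.29 ± 0.03 (adjusted p = 3.00e-07), and the repressor gene Per1 fell from 70.4 ± 6.41 to 45.6 ± 2.81 CPM (-0.63 ± 0.07). The kinase gene Csnk1e, which acts on PER proteins, fell (-0.27 ± 0.03). Added after their values were seen, Arntl, the partner of CLOCK, fell (-0.24 ± 0.05), and Nr1d2, a REV-ERB repressor gene, fell too (-0.21 ± 0.03), while the repressor gene Per2 stood at -0.04 ± 0.06 and was not called (adjusted p = 0.636). Per3 was the member called higher (0.12 ± 0.05), and its call was lost without GFP replicate 1 or 3, without Nfya replicate 1 or 3, and with DESeq2. Over the alternatives 11 to 16 clock genes were lower.

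Immediate early and MAPK feedback genes, which respond to growth signals within minutes to hours, fell in 23 of 56 cases and rose in 9 (median -0.10). Fos stood at 31.6, 30.3 and 33.4 CPM in GFP and 12.7, 12.3 and 12.2 CPM in the Nfya-labelled libraries. The change was -1.35 ± 0.09 (adjusted p = 6.59e-09), and Fosl1, another AP-1 subunit gene, stood at 50.4, 47.1 and 46.2 CPM in GFP and 19.6, 22.6 and 26.1 CPM in the Nfya-labelled libraries (-1.07 ± 0.08). Myc fell from 97.9 ± 2.38 to 66.8 ± 1.93 CPM (-0.55 ± 0.04). Dusp2, a MAPK phosphatase gene added after its values were seen, fell from 10.02 ± 1.97 to 1.66 ± 0.375 CPM (-2.59 ± 0.26), whereas Dusp3 and Spry1 rose by 0.25 ± 0.03 and 0.35 ± 0.04. Targets of SRF, MRTF and YAP, factors that respond to actin and cell shape, rose in 22 of 42 cases and fell in 7. Amot, which encodes a YAP-binding protein, rose from 48.4 ± 1.22 to 96.0 ± 3.72 CPM (0.99 ± 0.05), and Nt5e, the ectonucleotidase CD73 gene, from 47.2 ± 1.40 to 82.0 ± 2.72 CPM (0.80 ± 0.05). Wwc1, the KIBRA gene of the Hippo pathway, stood at 76.8, 73.1 and 73.8 CPM in GFP and 22.8, 24.6 and 22.7 CPM in the Nfya-labelled libraries and fell (-1.67 ± 0.06).

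Transcription factors of mesenchymal cells rose in 20 of 37 cases and fell in 7 (median 0.34). Tcf21, a factor of epicardial and fibroblast lineages, stood at 3.06, 2.96 and 3.18 CPM in GFP and 16.6, 16.4 and 16.1 CPM in the Nfya-labelled libraries. Its rise was 5.32-fold (log2 fold change 2.41 ± 0.14, adjusted p = 8.08e-10), and Prrx1, a mesenchymal homeobox gene, rose from 7.10 ± 0.558 to 18.5 ± 0.733 CPM (1.37 ± 0.11). Creb3l1, a factor for collagen secretion, rose from 48.7 ± 0.670 to 108 ± 2.52 CPM (1.15 ± 0.04), and the tendon factor gene Scx fell from 31.6 ± 2.53 to 16.4 ± 1.66 CPM (-0.94 ± 0.10). The fibroblast markers, which include Tcf21, rose as well (13 of 16, 1466 to 1545 CPM to 2557 to 2588 CPM summed). The lists thus overlap, and the part of the markers was not tested. SOX, FOX, GATA and T-box genes fell in 23 and rose in 13 of 48 cases (14 fell with a minimum of 5 CPM). Sox11 fell from 52.2 ± 2.75 to 29.4 ± 1.88 CPM (-0.83 ± 0.06), Foxp2 from 73.2 ± 2.63 to 46.8 ± 2.01 CPM (-0.65 ± 0.05) and Foxo4 from 153 ± 0.779 to 111 ± 4.01 CPM (-0.46 ± 0.04). Sox9 rose from 15.4 ± 0.945 to 29.0 ± 1.595 CPM (0.91 ± 0.08), and Foxm1, a driver of mitotic genes, from 58.6 ± 1.57 to 92.6 ± 1.96 CPM (0.66 ± 0.04).

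Some large nuclear families held many falls of small size and few rises, beside 27.9% lower and 24.3% higher over all tested genes. Of 224 tested C2H2 zinc finger genes named Zfp, 98 fell and 22 rose (43.8% lower and 9.82% higher, median -0.14, with 59 and 11 called by DESeq2). Zfp180 stood at 187, 175 and 179.9 CPM in GFP and 121, 121 and 130.0 CPM in the Nfya-labelled libraries and fell (-0.54 ± 0.04). Zinc finger genes of this class have close relatives, and counts could be split among them. Of 115 histone and DNA modifying enzyme genes 50 fell and 12 rose (43.5% lower and 10.4% higher, median -0.07). Kdm1a, the histone demethylase LSD1 gene, stood at 191, 198 and 205 CPM in GFP and 142, 136 and 135 CPM in the Nfya-labelled libraries (log2 fold change -0.52 ± 0.04, adjusted p = 6.42e-09). Smarca2, a chromatin remodelling ATPase gene, fell from 208 ± 3.38 to 158 ± 4.02 CPM (-0.40 ± 0.03), and Arid1a, a subunit gene of the same kind of complex, rose from 323 ± 6.50 to 383 ± 2.51 CPM (0.25 ± 0.03). Splicing factor genes fell in 40 and rose in 7 of 118 cases (19 and 3 with DESeq2, and up to 12 higher under other scalings, filters and samples fitted). Their 33.9% lower was near that background, but their 5.93% higher lay well under the 24.3% over all tested genes. Mbnl2, a regulator of developmental splicing in muscle, fell from 301 ± 11.02 to 237 ± 3.48 CPM (-0.34 ± 0.03), and Rbm20, the titin splicing factor gene, rose by 0.12 ± 0.03.

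Sarcomere genes changed by small amounts. Of 36 tested sarcomere genes 13 rose and 3 fell (median 0.05), none 2-fold. Their summed levels were 7632, 7487 and 8189 CPM in GFP and 8178, 8219 and 8122 CPM in the Nfya-labelled libraries, so GFP replicate 3 lay among the Nfya-labelled ones, and 18 rose without it. Myom1, the myomesin gene of the M-band, stood at 311, 309 and 319 CPM in GFP and 443, 444 and 437 CPM in the Nfya-labelled libraries and rose by 0.49 ± 0.03. Mypn, the myopalladin gene, rose from 194 ± 4.08 to 250.3 ± 4.70 CPM (0.37 ± 0.03), and the slow skeletal troponin gene Tnnt1 fell from 27.4 ± 0.334 to 16.0 ± 1.16 CPM (-0.77 ± 0.08). Of these sarcomere genes 23 had more than 0.5 counts per base. Tnnt2, the cardiac troponin T gene with the densest coverage of all, was added after its values were seen and differed by -0.01 ± 0.04 (adjusted p = 0.912). When a ceiling of 1.6 counts per base was assumed and inverted, it was called higher, by 0.16. In the list of dystrophin, caveolar and titin-associated genes 13 of 38 rose and 9 fell. Dmd, the dystrophin gene, stood at 619, 619 and 631 CPM in GFP and 476, 471 and 476 CPM in the Nfya-labelled libraries and fell (-0.39 ± 0.03). Of 23 intercalated disc genes 5 rose and 7 fell (3 fell with DESeq2, 4 with only the 6 libraries compared or a minimum of 5 CPM), among them Jup, the plakoglobin gene, from 316 ± 16.1 to 245 ± 2.49 CPM (-0.36 ± 0.04).

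**Figure D4:**
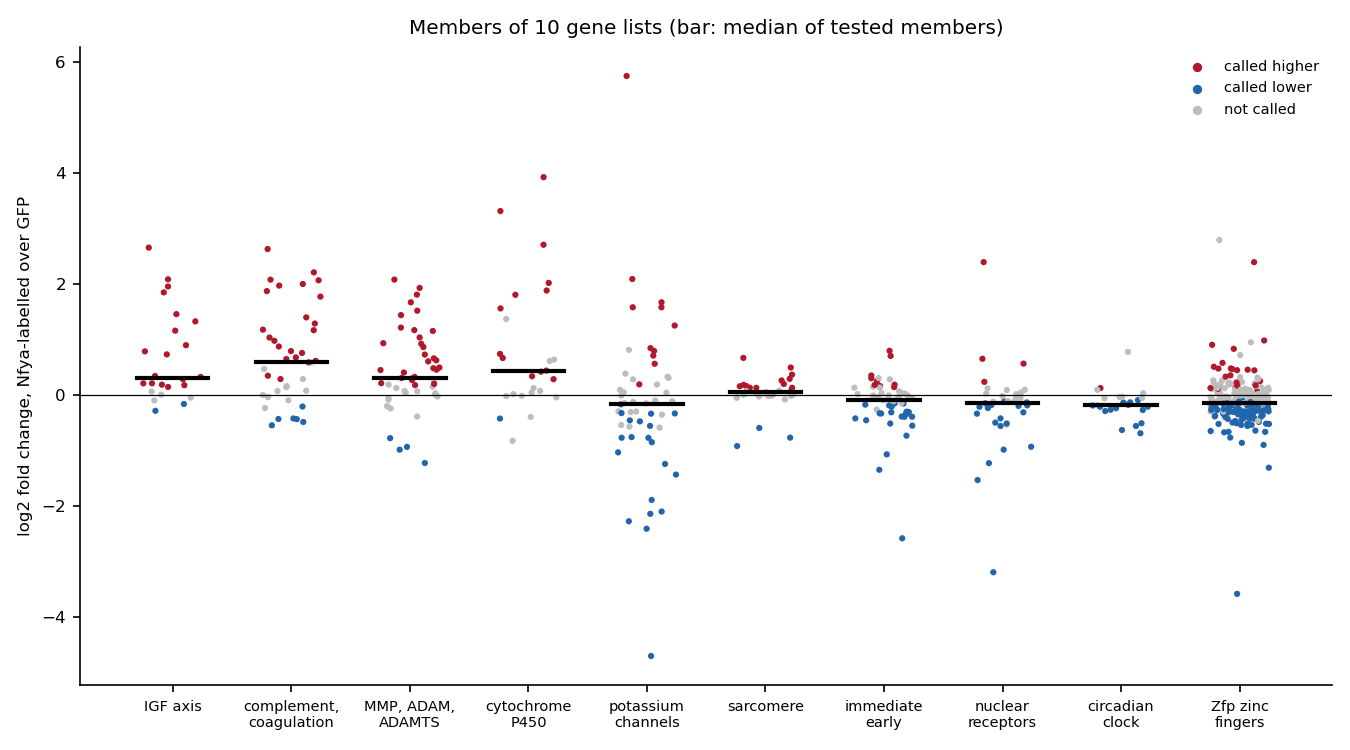
Log2 fold change of the Nfya-labelled over the GFP libraries for the tested members of 10 lists, 1 point a gene, with called members in red or blue, others in grey and a bar at each median. Clock and Zfp genes cluster just under 0, while IGF axis, complement and protease genes spread upward.

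Cell cycle and matrix genes are given for scale: 92 of 110 cell cycle genes rose and 1 fell (median 0.51, 2 lower without GFP replicate 1, GFP replicate 2, Nfe2l1 replicate 3 or Nfya replicate 2 or with the ceiling of 1.6 counts per base inverted), and 72 of 102 matrix genes rose and 13 fell (median 0.59). The CCAAT box was then searched in promoters, as the letters CCAAT or its complement ATTGG on either strand, from 250 bases before to 50 after the first listed start of each gene. RefSeq windows of build GRCr8, a newer build than the counts used, were matched by symbol for 10612 of the 14151 tested genes. Below are windows chosen to show a dividing-cell gene with several boxes and the largest rise and fall among genes chosen by the 20 CPM rule outside the cell cycle and matrix lists, 5′ to 3′ along the gene, with CCAAT or ATTGG in capitals.

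Top2a (chr10:84473044-84473343, - strand): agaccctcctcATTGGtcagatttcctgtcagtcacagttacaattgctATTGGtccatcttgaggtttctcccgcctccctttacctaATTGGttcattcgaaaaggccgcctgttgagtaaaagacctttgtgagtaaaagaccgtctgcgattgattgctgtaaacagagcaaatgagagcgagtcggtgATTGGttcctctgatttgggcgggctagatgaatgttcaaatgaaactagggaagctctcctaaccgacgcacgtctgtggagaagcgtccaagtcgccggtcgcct
Hgf (chr4:19700418-19700717, - strand): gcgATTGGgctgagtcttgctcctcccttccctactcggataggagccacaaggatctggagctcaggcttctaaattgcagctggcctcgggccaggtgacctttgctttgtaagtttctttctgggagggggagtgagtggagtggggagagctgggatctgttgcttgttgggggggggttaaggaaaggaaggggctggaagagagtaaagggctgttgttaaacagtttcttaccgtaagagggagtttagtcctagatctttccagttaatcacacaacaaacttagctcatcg
Tmem200c (chr9:116252530-116252829, + strand): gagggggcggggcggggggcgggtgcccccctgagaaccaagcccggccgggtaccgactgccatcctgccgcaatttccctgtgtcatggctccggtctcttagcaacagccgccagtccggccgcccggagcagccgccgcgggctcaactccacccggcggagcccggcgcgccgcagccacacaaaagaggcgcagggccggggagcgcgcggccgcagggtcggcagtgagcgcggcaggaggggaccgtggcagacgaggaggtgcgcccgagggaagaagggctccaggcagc

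Top2a, the DNA topoisomerase gene of dividing cells, stood at 181, 185 and 168 CPM in GFP and 299.6, 294 and 303 CPM in the Nfya-labelled libraries. It rose by 0.74 ± 0.03, and its window holds 4 inverted boxes, which begin 239, 201, 161 and 57 bases before the start. Hgf holds 1, at 247 bases before the start, and Tmem200c none. Over all tested genes with a window 37.4% held the letters, close to the 37.7% of all 27457 windows given. The share was 33.4% (212 of 634) in genes called at least 2-fold higher, 32.0% (110 of 344) in those at least 2-fold lower and 38.2% in genes not called. Among cell cycle genes it was 66.7% (62 of 93). Of 19 published NF-Y target genes with a window 17 held the letters, a list chosen for that property, and of its 26 tested genes 13 rose and 4 fell. The falls were 0 with DESeq2, 1 with a minimum of 5 CPM or the replicate block, and 1 or 2 when GFP replicate 1, 2 or 3 or Nfya replicate 1 or 3 was left out. Pdgfrb, the PDGF receptor beta gene, rose from 41.7 ± 5.95 to 115 ± 3.03 CPM (1.45 ± 0.07) and Tk1, the thymidine kinase gene, from 46.9 ± 1.30 to 89.2 ± 4.83 CPM (0.93 ± 0.05). Called falls in the list included Cd74, Hmgcs1 and Col1a2, the last with the largest fall (-2.24, from 182 counts over the GFP libraries to 40). That fall is uncertain, as given with the fibroblast markers. Tk1 is among the members whose window lacks the letters. These shares are descriptions of letters in a fixed window and say nothing of binding, and no test was made of them.

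**Figure D5:**
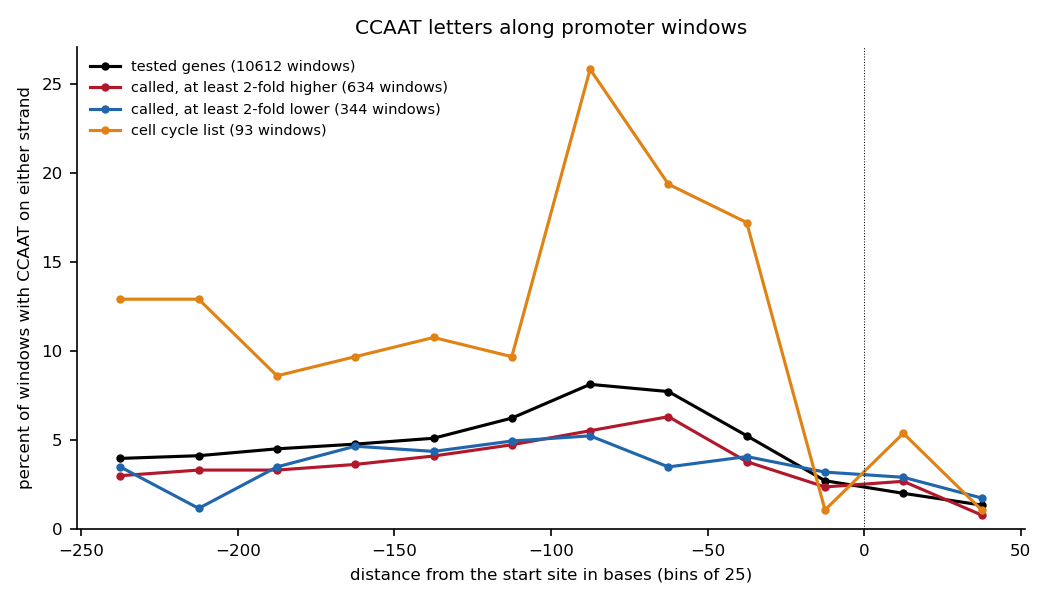
Percent of promoter windows with CCAAT letters on either strand (vertical axis) in bins of 25 bases by distance from the start (horizontal axis), for tested genes, genes called at least 2-fold higher or lower, and cell cycle genes. The cell cycle curve peaks between 100 and 50 bases before the start, and the curves of the 2-fold genes lie near or under that of all tested genes there.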

How the data were processed

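Messenger RNA was sequenced in 9 libraries of neonatal rat ventricular myocytes, 3 for each of 3 viruses, with stranded libraries per the labels' protocols. The authors deposited whole-number counts per gene symbol, not normalized. Per the submitters' processing notes, FastQC 0.11.4, featureCounts 1.6.0 and edgeR 3.20.5 were used, and the builds rn6, mm10 and GRCm38 are named with no role. The aligner, the annotation and the treatment of duplicate reads and strand have no entry in these sources, so counts of overlapping or antisense genes are uncertain and no gene coordinates are given other than promoter windows. The authors also deposited RPKM values with a gene Length column, used here for levels per length and counts per base. Their deposited comparison table holds log2 fold changes, a likelihood ratio score and p-values. In the authors' deposited table all 462 genes named by rule had the same sign as here.

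Genes kept by edgeR's filterByExpr (14151, with 99.8% of counts) were normalized with TMM factors. One term for the virus was fitted over the 9 libraries, and the quasi-likelihood F test came from edgeR 4.0.16 (limma 3.58.1, R 4.3.3). P-values were adjusted by Benjamini-Hochberg over all tested genes. On data simulated for this comparison over these 14151 genes, 97% of 100 genes changed 2-fold and 98% of 100 changed 4-fold were called, with 0.050% false calls. The simulated libraries were independent, with the same dispersion for every gene and few changed genes. Capped counts, the deviation of GFP replicate 3 and technical replication were not modelled, so these rates need not hold for the real libraries. Library totals of 5712123 to 7310774 counts limit precision for scarce genes. Floors cover only counting error in the group with 0 counts, because no molecular identifiers mark the reads.

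The named genes were Nfya, the 12 largest called rises and falls that averaged 20 CPM or more in the group where they were higher, whose groups did not overlap, with a standard symbol and no place in the cell cycle and matrix lists, the 10 most abundant called genes outside those lists changed at least 1.5-fold, and up to 3 called genes in each direction by smallest p from each list. From the 24 largest changes, the first 3 of each kind with a window and 2 published NF-Y targets gave the promoters, and 3 are printed. A few genes that the rule names are not reported here. Members and lists were chosen with earlier results of these data known. Other size factors, DESeq2 1.42.0, other filters, a smaller fit, a replicate block, an inverted ceiling on counts and each library left out were the alternatives.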

Additional observations from a re-analysis of the deposited data

How the results depend on the processing

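Against 3433 higher, 3953 lower, 916 at least 2-fold higher and 481 at least 2-fold lower genes, DESeq2 called 2610, 2486, 851 and 417, and a minimum of 5 mean CPM left 3427, 2923, 586 and 190, partly because fewer genes are tested. Without a filter the counts were 3937, 3653, 1140 and 697, and with only the 6 libraries compared 3849, 3347, 958 and 455. Leaving out each of the 9 libraries in turn gave 3139 to 3455 higher and 3583 to 4012 lower genes, with 847 to 943 and 452 to 511 of them 2-fold. Same-numbered GFP and Nfya-labelled libraries did not deviate together (correlations -0.04, 0.03 and -0.01), so the numbers are not taken to pair them, and no GFP library correlated best with its own number except replicate 2. With the replicate block 3371 genes were higher and 3849 lower, 911 and 478 of them 2-fold. Of the 24 largest changes, 16 to 20 differed from the Nfe2l1-labelled libraries over the alternatives, against 17. No called gene that is named turned direction under any alternative. The uncalled Tnnt2 turned from -0.01 to 0.16 (adjusted p = 0.0147) with the ceiling of 1.6 counts per base inverted, which acts most on densely covered genes. Counting CCAAT letters only within 150 bases before the start gave 26.0% of tested genes, 21.9% and 20.3% of genes at least 2-fold higher and lower, and 52.7% of cell cycle genes, since the window is shorter. Clock genes called lower numbered 11 to 16 and nuclear receptors 14 to 20 over the alternatives. Depth, at 5712123 counts in the shallowest library, limits what can be detected in scarce genes.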

Other observations

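Several families outside the groups above held calls in both directions. Mucin-type, fucosyl and sialyl glycosylation genes rose in 22 and fell in 12 of 58 tested cases. The mucin-type transferase gene Galnt13 rose from 32.2 ± 0.365 to 60.3 ± 4.46 CPM (0.90 ± 0.07), and Gcnt2, which branches the I blood group sugar, fell from 36.3 ± 2.84 to 12.4 ± 2.44 CPM (-1.55 ± 0.12). Intermediate filament genes rose in 8 and fell in 7 of 23 cases, with the epithelial keratin gene Krt23 up from 4.69 ± 0.691 to 18.4 ± 1.42 CPM (1.98 ± 0.13) and Krt18, a simple epithelial keratin gene, down from 73.6 ± 6.57 to 40.7 ± 4.06 CPM (-0.84 ± 0.07). Nes, the nestin gene of immature cells, fell from 34.5 ± 1.03 to 21.4 ± 0.339 CPM (-0.69 ± 0.07).

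Cilium and axonemal dynein genes were near the background, with 37 of 158 higher and 34 lower (21 lower with DESeq2). Rhoj, a small GTPase gene of vessel lining cells, rose from 13.03 ± 2.26 to 47.0 ± 2.69 CPM (1.84 ± 0.09), and Arhgef26, a GTPase exchange factor gene, fell from 85.4 ± 2.82 to 48.7 ± 3.62 CPM (-0.81 ± 0.05). G protein and RGS genes rose in 15 and fell in 11 of 53 cases (7 fell with DESeq2 or a minimum of 5 CPM), 9 and 2 of them at least 2-fold. Kcne5, a potassium channel subunit gene chosen after its values were seen, was counted 0 times over the GFP libraries and 20 times over the Nfya-labelled ones. With the same floor of 3 counts it was 6.38-fold higher, a ratio that takes the 20 counts as exact and so is no lower bound.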
